A study of Mus musculus with 4 samples.

Results

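The unfolded protein response and the folding machinery of the endoplasmic reticulum (ER) were followed through 34 genes across 4 mRNA sequencing libraries. The genes are the ER stress sensors, the transcription factors below them, ER chaperones and disulfide isomerases, components of ER-associated degradation and of the translocation channel, and targets of ATF4. They were taken from a list of gene symbols, which was drawn up with earlier results of these data known. All 34 were found among the 37681 gene IDs of the count tables, Vimp under its current symbol Selenos. Wild-type C57BL/6 mice gave the bone marrow cells. These grew in DMEM, FBS and L929 supernatant, which supplies M-CSF and so favours macrophages. One group was unstimulated and without shRNA, and another was without shRNA and given Pam3Cys4, a lipopeptide sensed by TLR2 with TLR1, at 100 nM for 5 h. The other 2 groups, unstimulated and Pam3Cys4-treated in the same way, carried an shRNA against lncRNA-COX2, a long noncoding RNA induced by TLR ligands. Each group is 1 library, and the labels do not say whether the 4 came from separate cultures or animals. Y-linked reads, given below, set the source of the cells with shRNA apart from that of the cells without. The titles of the libraries without shRNA read EV, which the labels do not spell out, so what those cells carried in place of the shRNA is not known here, and the level of the targeted RNA was not analysed.

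Secreted and membrane proteins are threaded into the ER, folded there by chaperones and disulfide isomerases, and returned to the cytosol for destruction when folding fails. When unfolded protein builds up, the sensor IRE1 (gene Ern1) splices Xbp1 mRNA, the sensor ATF6 is cut to release a transcription factor, and the kinase PERK (Eif2ak3) phosphorylates eIF2, which slows protein synthesis while favouring translation of ATF4. XBP1 and ATF6 drive chaperone and degradation genes, and ATF4 and its partner CHOP (Ddit3) drive amino acid supply and stress genes. Macrophages that begin to secrete cytokines load this system, and TLR ligands are known to act on its IRE1 arm. Gene counts do not separate spliced from unspliced Xbp1 mRNA.

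The libraries held 47385277 to 65826838 reads assigned to genes. Totals that named no gene made up 32.5 to 34.4% of each table, and alignments to several places 27.0 to 29.9%. Genes with near copies elsewhere in the genome, such as processed pseudogenes, may thus be undercounted. How many reads any member lost in this way was not measured. All 9 macrophage markers examined were read in each library, with a summed level of 5977 to 8752 CPM (CPM being read counts put on a common library size by TMM scaling). Single macrophage markers differed with shRNA: by the additive edgeR test below, Mertk (log2 2.94), Mpeg1 (0.95) and Cd68 (0.87) rose and Emr1 (-0.79) fell. Their part in the results was not tested. Marker sums of other cell types were 0.0576 to 0.510 CPM for granulocytes (6 genes, Ly6g, Elane, Ngp and Ltf at 0), 1.02 to 7.89 CPM for T cells (5 genes, only Lck read, higher in both libraries with shRNA), 0.330 to 2.30 CPM for dendritic cells (5 genes, Ccr7 at 0), 0 to 0.0150 CPM for mast cells and basophils (4 genes), 0.182 to 0.345 CPM for erythroid cells (4 genes) and 0 to 0.0547 CPM for fibroblasts and stroma (5 genes). The 8 markers of B and plasma cells, which carry a very large ER, summed to 42.3 to 102 CPM, nearly all from Sdc1. Both libraries with shRNA held Y-linked reads that those without it nearly lacked, with 921 and 1116 counts of Ddx3y against 3 and 4. Kdm5d had 730 and 665 counts with shRNA against 0 and 1, and Uty 320 and 334 against 1 and 0. The shRNA comparisons thus also compare sources of cells with and without these Y-linked transcripts. Whatever goes with this difference in source and the shRNA itself cannot be told apart in the shRNA comparisons below. In bulk RNA, fewer cells with a transcript and less transcript per cell cannot be told apart either.

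Promoters of several members carry short elements that ER stress factors are known to read, and 6 of them are printed because their genes recur in the results. The sequences are from RefSeq on GRCm38.p6, a later build than that of the counts. A promoter was in that set for 30 members, and the windows printed lie upstream of the annotated start. The ER stress element ERSE is CCAAT and CCACG with any 9 bases between them, the element ERSE-II is ATTGG and CCACG with any 1 base between them, and the core searched for ATF4 with C/EBP partners, here CARE, is TTGCATCA. Both strands were searched. Capitals mark the fixed letters of a match, and the match in Creld2 is on the opposite strand.
Hspa5 (chr2:34771990-34772069, plus strand, ERSE): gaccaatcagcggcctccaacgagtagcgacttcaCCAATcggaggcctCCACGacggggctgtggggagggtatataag
Creld2 (chr15:88819496-88819565, plus strand, ERSE): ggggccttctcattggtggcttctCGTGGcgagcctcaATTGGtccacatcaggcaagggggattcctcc
Dnajc3 (chr14:118937802-118937871, plus strand, ERSE): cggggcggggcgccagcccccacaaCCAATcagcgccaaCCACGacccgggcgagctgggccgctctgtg
Canx (chr11:50325774-50325843, minus strand, ERSE): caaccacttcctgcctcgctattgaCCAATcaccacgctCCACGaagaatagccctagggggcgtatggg
Herpud1 (chr8:94386304-94386398, plus strand, CARE then ERSE-II): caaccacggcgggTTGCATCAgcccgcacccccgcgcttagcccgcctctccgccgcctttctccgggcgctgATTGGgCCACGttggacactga
Chac1 (chr2:119351022-119351081, plus strand, CARE): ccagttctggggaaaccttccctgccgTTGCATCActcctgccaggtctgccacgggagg

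ERSE was found in 9 of the 30 members with a promoter (30.0%): Hspa5, Hsp90b1, Calr, Canx, Dnajc3, Creld2, Pdia6, Syvn1 and Derl3. Over all 27025 genes with a promoter of the same length, 37 held it (0.137%). The members were listed for ER stress and folding, and ERSE is known to be read by ER stress factors. A higher share in them was therefore likely before the search. ERSE-II was found in Herpud1 and Dnajb11, 2 of 30 members, against 12 of all genes (0.0444%), and overlapped no ERSE match in them. CARE was found in Herpud1 and Chac1, against 279 of all genes (1.03%). The element TGACGTGG, known from XBP1 binding, was in 0 of 30 members and in 193 of all genes (0.714%). A match describes letters in a window of 250 bases before to 50 bases after the start and shows no binding.

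Together the 34 genes made up 0.985% of gene reads in unstimulated and 1.04% in Pam3Cys4-treated cells without shRNA, and 0.711% and 0.688% with it. After scaling this was 8952 and 10732 CPM without shRNA, against 7020 and 7449 CPM with it, so both libraries with shRNA lay below both without. Chaperones supplied the largest part, 4231 and 5516 CPM without shRNA, against 3421 and 3838 CPM with it. Per kilobase of exon (exon lengths from GENCODE vM21), the highest mean levels over the 4 libraries were those of Calr, the calcium-binding lectin chaperone calreticulin, at 451 CPM per kilobase, and Hspa5, the master chaperone BiP, at 393 CPM per kilobase. Sdf2l1, a small partner of BiP, followed at 315 and the disulfide isomerase Pdia6 at 150 CPM per kilobase. Across libraries Calr ran from 412 to 533 CPM per kilobase, Hspa5 from 261 to 590 and Sdf2l1 from 179 to 468, so that their order changed with the library. At the other end, the sensors Ern1 (5.80) and Eif2ak3 (6.78) were low on this scale, and Derl2 (2.37) was next to lowest. Derl3, a degradation channel subunit typical of secretory cells, was lowest at 0.702 CPM per kilobase. Derl3 had 82 and 60 counts without shRNA and 116 and 60 with it, under the minimum of 5 CPM in each library. It is the only member that did not enter the comparisons, which leaves 33 of 34. Dnajb9 (2.39 CPM per kilobase), an ER-resident co-chaperone, stood at 260 to 385 counts, and its highest library, at 7.26 CPM, was the next closest to that minimum.

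**Figure D1:**
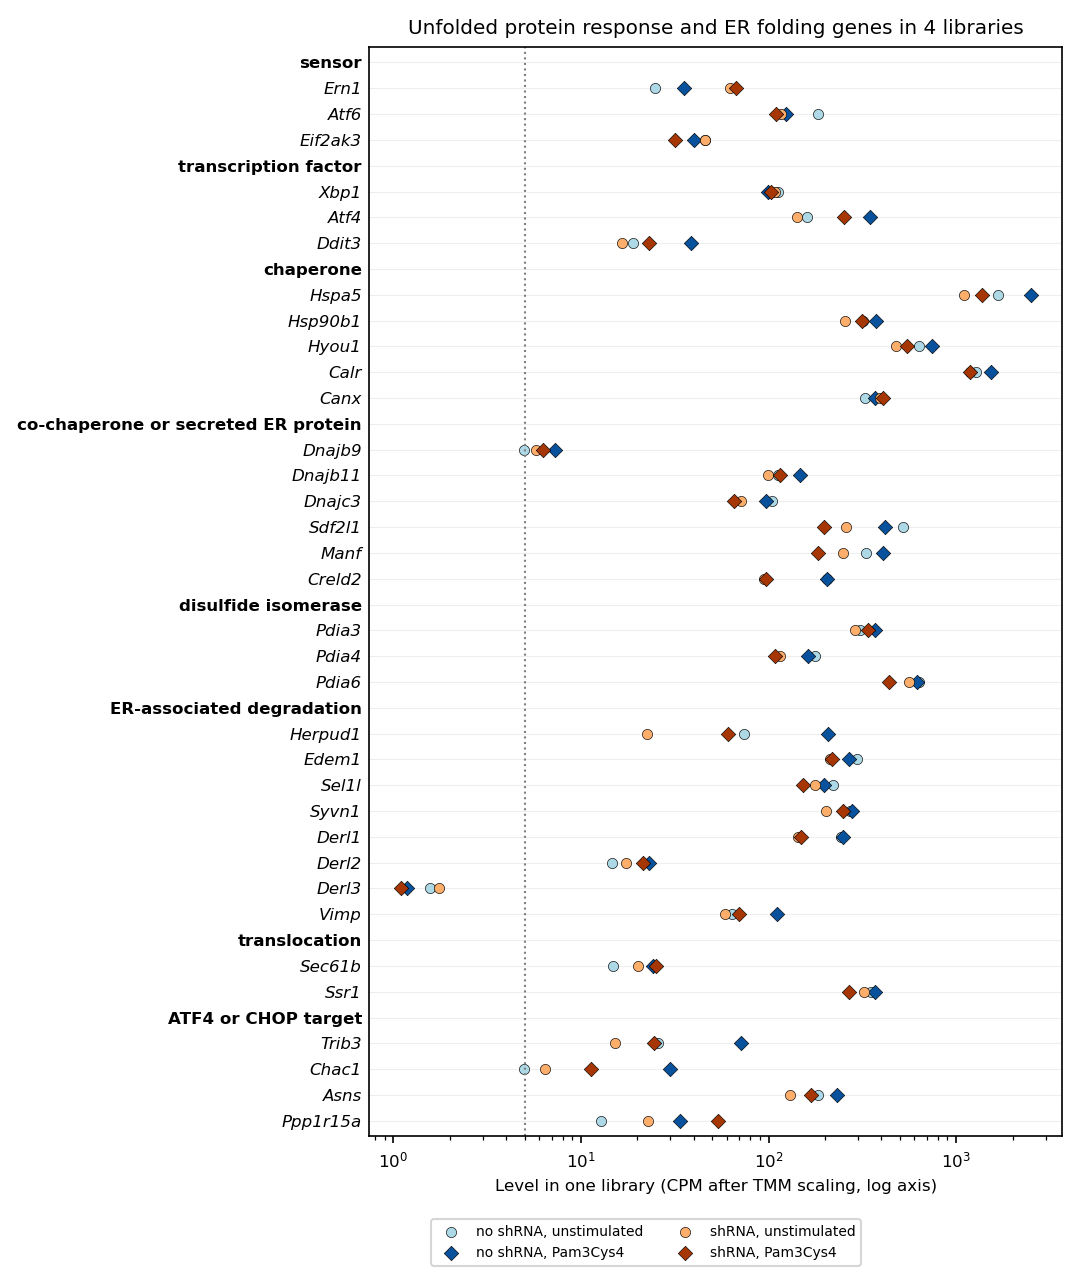
Level of each member in each of the 4 libraries, in CPM after TMM scaling on a log axis, with genes grouped by role. Circles are unstimulated and diamonds Pam3Cys4-treated cells, blue without and orange to brown with shRNA, and the dotted line is the 5 CPM minimum, with Derl3 below it in each library.

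The shRNA libraries held less transcript of most members, in unstimulated and in stimulated cells alike. Herpud1 stood furthest below the cells without shRNA in both states. In unstimulated cells Creld2 and Sdf2l1 came next, and after Pam3Cys4 Trib3, Chac1 and Manf. The ER chaperone BiP, the degradation gene Derl1 and the ATF4 target Asns were lower as well. Ern1 and Ppp1r15a stood out on the other side. Levels were first compared as the ratio of 2 libraries, with an exact 95% interval that covers counting error only. A ratio was called when it was at least 2-fold with an interval that excluded 1. In unstimulated cells 2 of 33 members were at least 2-fold lower with shRNA (6.06%), near the 4.82% of all 9651 genes measured. In the same cells 1 was higher, against 7.00%. After Pam3Cys4 6 of 33 were at least 2-fold lower, against 5.58% of 9702 genes, and 0 higher, against 9.00%. The members' median log2 ratio was -0.19 in unstimulated cells and -0.45 after Pam3Cys4, where all genes measured had 0.02 and 0.05. Most shifts were thus smaller than 2-fold, and a count of genes with intervals on 1 side of 1 in both stimulation states, chosen after the values were seen, was added. It gave 24 of 33 members lower with shRNA in both states (72.7%) against 27.3% of 9339 genes, and 3 higher (Ern1, Canx and Ppp1r15a, 9.09%) against 33.9%. These 2 shRNA ratios share no library. With library totals 25 of 33 members were lower in both states (75.8%), against 36.2% of 9317 genes, and 3 higher (9.09%), against 25.7%. A counting interval excludes 1 more easily at high counts, and the members were not matched to all genes by level. Such counts, here and for Pam3Cys4 below, therefore depend on level as well as on direction.

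An edgeR quasi-likelihood test of shRNA and stimulation as additive effects was the only test. For each factor it treats both levels of the second factor like replicates and keeps 1 residual degree of freedom. Variation from culture to culture or mouse to mouse is therefore not part of these p-values. With Benjamini-Hochberg adjustment over all 9559 genes at 0.05, 9 of 33 members fell with shRNA (27.3%), against 8.66% of all genes, and 2 rose (6.06%), against 12.3%. The median log2 effect of the 33 was -0.35, and that of all genes 0.04. The members that fell were Herpud1, Creld2, Sdf2l1, Derl1, Pdia4, Hspa5, Trib3, Dnajc3 and Asns, and those that rose were Ern1 and Ppp1r15a. The shares of all genes, 8.66% falling and 12.3% rising, also stand beside the counts by role below. Each role holds few members, so 1 call in a role is not read as a result about it.

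**Figure D2:**
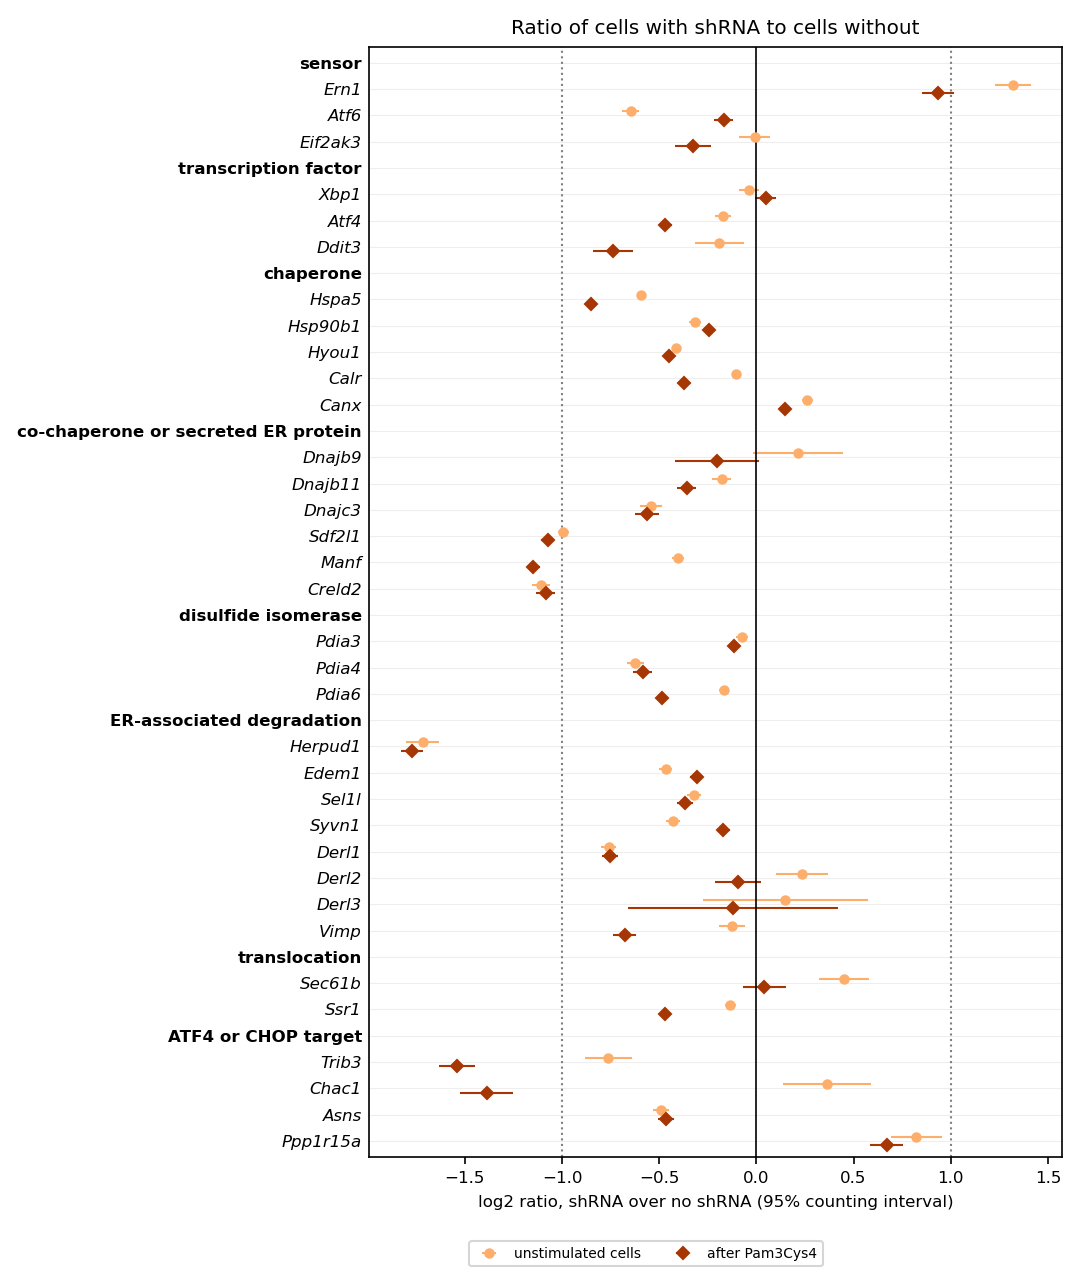
log2 ratio of cells with shRNA over cells without for each member, in unstimulated cells (circles) and after Pam3Cys4 (diamonds), with 95% intervals for counting error and dotted lines at 2-fold. Most points lie left of 0 in both states, Herpud1 furthest, while Ern1 and Ppp1r15a lie right of 0 in both.

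Of the 3 sensors, 1 rose with shRNA. Ern1, the IRE1 kinase and endonuclease, was read at 24.9 CPM in unstimulated and 35.2 CPM in stimulated cells without shRNA, against 62.2 and 67.2 CPM with it, so the groups did not overlap. It was 2.496-fold higher with shRNA before stimulation (2.34 to 2.66) and 1.91-fold higher after Pam3Cys4 (1.802 to 2.02), with an additive log2 effect of 1.13 (standard error 0.15, edgeR adjusted p = 0.0106). Atf6, the membrane-bound factor released by cleavage, stood at 183 and 123 CPM without shRNA, against 117 and 109.7 CPM with it, so that the unstimulated library without shRNA stood above the other 3, and its shRNA effect missed the threshold (log2 -0.41, edgeR adjusted p = 0.133). Eif2ak3, the PERK kinase, had 46.0 and 39.9 CPM without shRNA, against 45.7 and 31.8 CPM with it (edgeR adjusted p = 0.441).

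None of the 3 transcription factors passed the additive test for shRNA, while Atf4 and Ddit3 were lower with it in both states. Xbp1, the substrate of IRE1, had intervals that included 1 in both states, at 111.7 and 99.5 CPM without shRNA, against 108.8 and 102.8 CPM with it (log2 effect 0.01, standard error 0.11, edgeR adjusted p = 0.980). Atf4 was 1.13-fold lower with shRNA before stimulation and 1.38-fold lower in stimulated cells, and Ddit3, the gene of the pro-apoptotic factor CHOP, 1.14-fold and 1.67-fold lower. Their additive log2 effects were -0.32 and -0.47 (edgeR adjusted p = 0.149 and 0.136).

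Among the 5 chaperones, 1 fell. Hspa5 had 1664 and 2494 CPM in unstimulated and stimulated cells without shRNA and 1103 and 1382 CPM with it, so its highest level with shRNA lay below its lowest without. With shRNA it was 1.51-fold lower before stimulation (1.49 to 1.52) and 1.804-fold lower in stimulated cells (1.79 to 1.82), with a log2 effect of -0.72 (standard error 0.13, edgeR adjusted p = 0.0250). Hyou1, a large chaperone that helps BiP exchange nucleotide, had 637 and 744 CPM without shRNA, against 478 and 545 CPM with it, and did not pass (log2 -0.43, edgeR adjusted p = 0.0603), though it did with DESeq2, with library totals and with no filter. Calr had 1284 and 1534 CPM without shRNA, against 1192 and 1185 CPM with it. Hsp90b1, the ER form of HSP90, and Calr had log2 effects of -0.28 and -0.24 (edgeR adjusted p = 0.146 and 0.256). Canx, the membrane-bound lectin chaperone calnexin that works beside Calr, lay on the other side, at 328 and 370 CPM without shRNA, against 393 and 409 CPM with it (log2 0.20, edgeR adjusted p = 0.264).

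Of 6 co-chaperones and small ER proteins, 3 fell. Creld2, a secreted ER stress protein, stood at 205 and 206 CPM without shRNA, against 95.2 and 97.2 CPM with it, and so differed by shRNA and hardly by stimulation. It was 2.16-fold lower with shRNA before stimulation (2.09 to 2.22) and 2.12-fold lower in stimulated cells (2.05 to 2.19), with a log2 effect of -1.10 (standard error 0.11, edgeR adjusted p = 0.00442). Sdf2l1 had 518 and 418 CPM without shRNA, against 261 and 199 CPM with it, a log2 effect of -1.03 (standard error 0.11, edgeR adjusted p = 0.00576). Dnajc3, a co-chaperone that also restrains eIF2 kinases, had 104 and 96.7 CPM without shRNA, against 71.5 and 65.4 CPM with it. It was 1.46-fold and 1.48-fold lower with shRNA in the 2 stimulation states (log2 -0.55, edgeR adjusted p = 0.0345). Manf, a secreted ER stress protein that also binds BiP, had 332 and 409 CPM without shRNA, against 251 and 184 CPM with it. It was 2.22-fold lower in stimulated cells (2.16 to 2.27) but 1.32-fold lower before stimulation (1.30 to 1.35), and did not pass the additive test (log2 -0.78, standard error 0.21, edgeR adjusted p = 0.0601). Under the same 3 alternatives as Hyou1, Manf passed. The BiP co-chaperones Dnajb11 and Dnajb9 had log2 effects of -0.27 and 0.00 (edgeR adjusted p = 0.174 and 0.996).

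Of 3 disulfide isomerases, which form and rearrange protein cross-links, Pdia4 fell, from 178 and 163 CPM without shRNA to 115 and 109 CPM with it (log2 -0.60, standard error 0.11, edgeR adjusted p = 0.0242). Pdia6 had 633 and 616 CPM without shRNA, against 563 and 439 CPM with it, and Pdia3, the partner of the lectin chaperones, 306 and 367 against 290.5 and 339 CPM. Pdia6 was 1.12-fold lower with shRNA in unstimulated and 1.40-fold lower in stimulated cells, and Pdia3 1.05-fold and 1.08-fold lower (edgeR adjusted p = 0.155 and 0.578).

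In ER-associated degradation, 2 of 7 members measured fell. Herpud1, an adaptor that gathers the degradation complex and turns over quickly, had 3838 and 10443 counts without shRNA and 1491 and 3318 with it, or 73.6 and 207 CPM against 22.4 and 60.4 CPM. The stimulated library with shRNA thus lay below the unstimulated one without it. With shRNA Herpud1 was 3.29-fold lower before stimulation (3.10 to 3.50) and 3.42-fold lower in stimulated cells (3.29 to 3.56), the largest shRNA effect of the members tested (log2 -1.75, standard error 0.12, edgeR adjusted p = 0.00140). Derl1, a channel protein of the same complex, had 243.1 and 249.6 CPM without shRNA, against 143.6 and 148.2 CPM with it (log2 -0.76, standard error 0.11, edgeR adjusted p = 0.0130). Syvn1, the ubiquitin ligase of the complex, had 273 and 279.7 CPM without shRNA, against 203 and 248.5 CPM with it, and Edem1, which reads glycans, 295 and 269.7 against 213 and 218 CPM. Syvn1, its partner Sel1l and Edem1 were lower with shRNA in both states by 1.13-fold to 1.38-fold, and none of the 3 passed the test (edgeR adjusted p = 0.158, 0.0909 and 0.0794). Vimp, a membrane selenoprotein that recruits the extraction ATPase, was 1.09-fold and 1.60-fold lower (edgeR adjusted p = 0.168), and Derl2 1.18-fold higher and 1.07-fold lower (edgeR adjusted p = 0.777). Of the translocation genes, Ssr1, a subunit of the complex beside the channel, had 354 and 370 CPM without shRNA, against 322 and 267 CPM with it, and the channel subunit Sec61b 14.8 and 24.3 against 20.3 and 24.99 CPM (edgeR adjusted p = 0.178 and 0.331).

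The ATF4 and CHOP targets split. Trib3, a pseudokinase that feeds back on ATF4 and CHOP, had 25.6 and 71.6 CPM without shRNA, against 15.1 and 24.6 CPM with it, and fell (log2 -1.15, standard error 0.22, edgeR adjusted p = 0.0271). Asns, asparagine synthetase, had 183 and 232 CPM without shRNA, against 131 and 168 CPM with it, and fell by a smaller step (log2 -0.48, standard error 0.11, edgeR adjusted p = 0.0431). Ppp1r15a, the phosphatase subunit GADD34 that reverses eIF2 phosphorylation, rose, from 12.8 and 33.7 CPM without shRNA to 22.7 and 53.6 CPM with it (log2 0.74, standard error 0.13, edgeR adjusted p = 0.0218). Chac1, a glutathione-degrading enzyme, differed in opposite directions by state: it was 1.28-fold higher with shRNA before stimulation (1.10 to 1.505) and 2.61-fold lower in stimulated cells (2.38 to 2.88).

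Herpud1, Ppp1r15a, Atf4, Trib3 and Ddit3 rose with Pam3Cys4 by the additive test. Of 4 ATF4 or CHOP targets, Trib3 and Ppp1r15a passed, while Chac1 and Asns did not. Atf4, Ddit3, Trib3 and Chac1 were at least 2-fold higher without shRNA and within 2-fold with it, and the sensors, disulfide isomerases and degradation genes other than Herpud1 were within 2-fold in both shRNA states. Without shRNA 6 of 33 members were at least 2-fold higher after stimulation (Chac1, Herpud1, Trib3, Ppp1r15a, Atf4 and Ddit3), against 7.07% of all 9555 genes measured, and 0 were lower, against 6.51%. With shRNA 2 of 33 were at least 2-fold higher (Herpud1 and Ppp1r15a), against 6.30% of 9601 genes, and 0 lower, against 3.53%. The count of 2 members higher with shRNA present is thus near the share of all genes. The median log2 ratio of the members was 0.26 without and 0.13 with shRNA, and that of all genes 0.00 and 0.02. Scaling by library totals alone shifted the median of all genes to -0.19 and -0.12, and the members' medians to 0.08 and -0.01. In the additive test 5 of 33 rose with Pam3Cys4 (15.2%), near the 11.9% of all genes, and 0 fell, against 10.9%. By the count of intervals on 1 side of 1 in both shRNA states, 18 of 33 members were higher after Pam3Cys4 (54.5%), against 33.0% of 9142 genes, and 8 lower (24.2%), against 32.2%. With library totals these were 15 members higher (45.5%), against 21.6% of 9161 genes, and 12 lower (36.4%), against 45.5%.

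**Figure D3:**
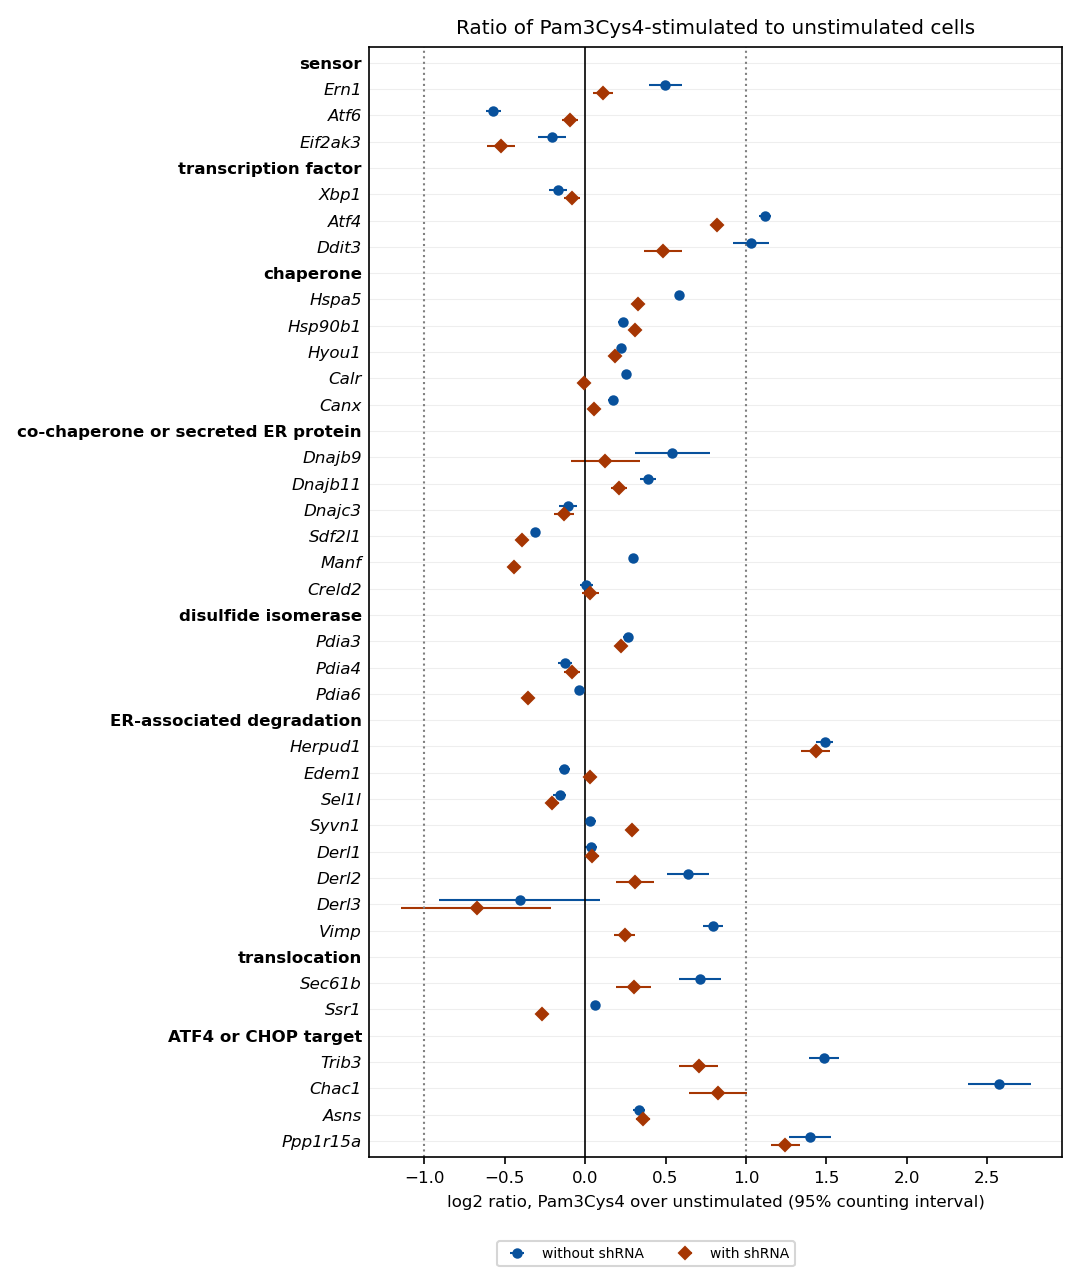
log2 ratio of Pam3Cys4-treated over unstimulated cells for each member, without shRNA (blue circles) and with it (brown diamonds), with 95% intervals for counting error and dotted lines at 2-fold. Herpud1 and Ppp1r15a lie beyond 2-fold in both, and Chac1, Trib3, Atf4 and Ddit3 lie beyond it without shRNA and within it with shRNA.

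Herpud1 had the smallest p of the members for stimulation. From the counts given above it was 2.81-fold higher after Pam3Cys4 without shRNA (2.71 to 2.91) and 2.70-fold higher with it (2.54 to 2.87), and its additive log2 effect was 1.46 (standard error 0.12, edgeR adjusted p = 0.00535). Ppp1r15a, the eIF2 phosphatase subunit, was 2.63-fold (2.40 to 2.88) and 2.37-fold higher (2.22 to 2.52), a log2 effect of 1.32 (standard error 0.13, edgeR adjusted p = 0.00770). For both genes each stimulated library lay above its unstimulated partner.

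Atf4 itself had 161 CPM in unstimulated and 348 CPM in stimulated cells without shRNA, and 143 and 252 CPM with it. It was 2.17-fold higher after Pam3Cys4 without shRNA (2.11 to 2.23) and 1.77-fold higher with it (1.72 to 1.81), a log2 effect of 0.97 (standard error 0.13, edgeR adjusted p = 0.0138). The transcript of CHOP, Ddit3, went from 18.8 to 38.5 CPM without shRNA and from 16.5 to 23.1 CPM with it (log2 0.76, edgeR adjusted p = 0.0448). Trib3 was 2.80-fold higher without shRNA (2.63 to 2.98) and 1.63-fold higher with it (1.501 to 1.77), a log2 effect of 1.10 (edgeR adjusted p = 0.0312). The fold of Chac1 was 5.95 without shRNA (5.21 to 6.81), from 260 to 1499 counts, and 1.77 with it (1.56 to 2.01), from 427 to 623 counts. Its additive effect, log2 1.69 with a standard error of 0.45, did not pass at an edgeR adjusted p of 0.0560. Asns was 1.26-fold and 1.28-fold higher (edgeR adjusted p = 0.0814).

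The folding genes changed less with stimulation. BiP was 1.499-fold higher without shRNA (1.49 to 1.51) and 1.25-fold higher with it (1.24 to 1.27). Its additive effect missed the threshold (log2 0.45, edgeR adjusted p = 0.0701) but passed under the DESeq2 Wald test (adjusted p = 0.0368). Hyou1 and Hsp90b1 had ratios between 1.14 and 1.24 in both shRNA states. Sdf2l1 was 1.24-fold lower without shRNA and 1.31-fold lower with it (log2 -0.35, edgeR adjusted p = 0.0846). Of the sensors, Atf6 was 1.48-fold lower without and 1.07-fold lower with shRNA, and Eif2ak3 1.15-fold and 1.44-fold lower, without passing the additive test (edgeR adjusted p = 0.179 and 0.125). Xbp1 was 1.12-fold and 1.06-fold lower. For Canx, Creld2 and Derl1 the ratio was at most 1.13-fold in either shRNA state and its sign depended on the scaling. With library totals the sign also changed for Ern1, Dnajb9 and Edem1 with shRNA, and for Syvn1 and Ssr1 without it.

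Stimulation folds were compared between shRNA states as a ratio of ratios, the fold with shRNA over that without. It has no test, since each of the 4 counts is a single library. Of 33 members 1, Chac1, had a stimulation fold at least 2-fold smaller with shRNA, against 1.64% of all 9857 genes measured, and 0 had a larger one, against 1.94%. The log2 value for Chac1 was -1.75 (-2.01 to -1.49). It was followed by Trib3 at -0.78 (-0.93 to -0.63), Manf at -0.74 (-0.79 to -0.70), Ddit3 at -0.55 (-0.71 to -0.39) and Vimp at -0.55 (-0.64 to -0.46). At the other end stood Atf6 at 0.48 (0.41 to 0.54) and Syvn1 at 0.26 (0.21 to 0.31). Of the members that fell with shRNA, Herpud1, Creld2, Derl1, Pdia4, Dnajc3 and Asns had a log2 interval of the ratio of ratios including 0. For Hspa5 (-0.28 to -0.24), Sdf2l1 (-0.12 to -0.04) and Trib3, which fell too, the interval lay below 0. The additive test counts a difference between states as error, so it favours genes with a small ratio of ratios. Intervals that include 0 are therefore no separate sign of an equal shRNA effect in both states. The log2 ratio of ratios was below 0 in 24 of 33 members, against 4622 of all 9857 genes measured. Its median was -0.15, against 0.02 for all genes.

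**Figure D4:**
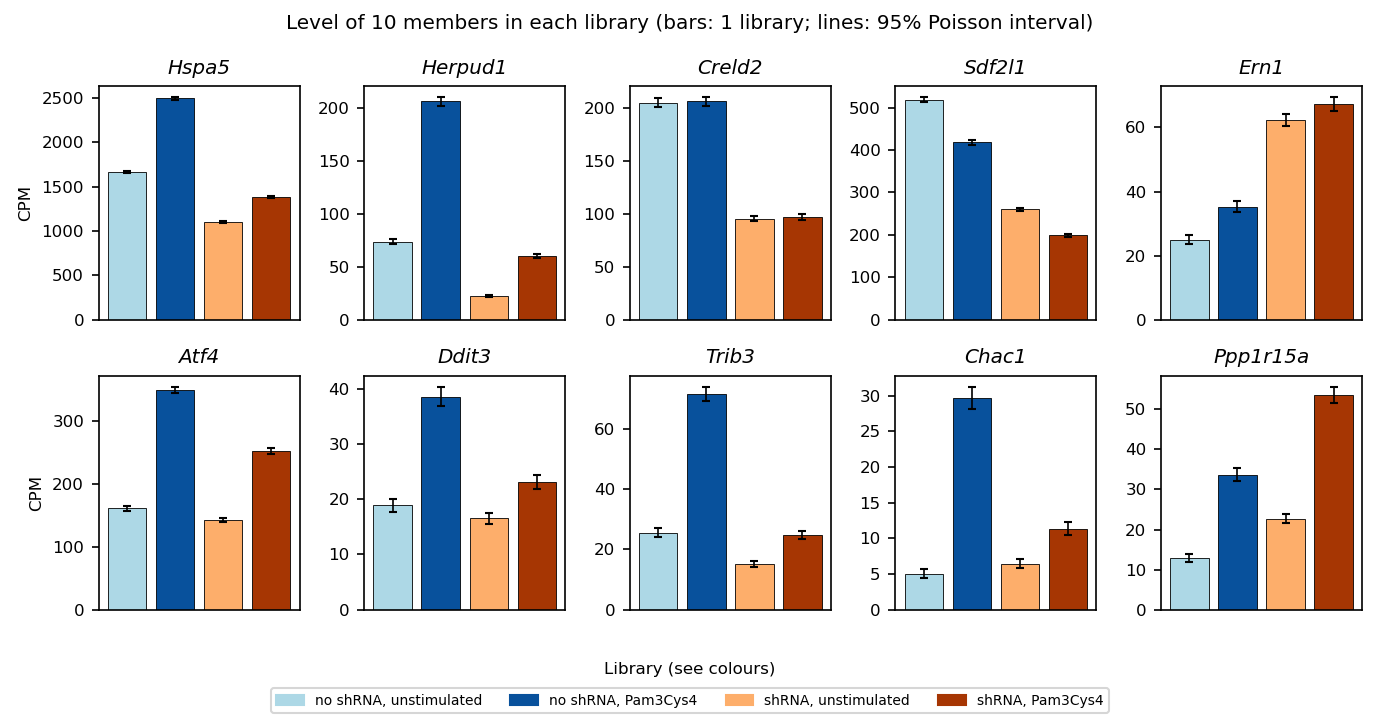
CPM of 10 members in each library (bars start at 0, each bar 1 library, lines the 95% Poisson interval of its count). Herpud1, Trib3 and Chac1 peak in stimulated cells without shRNA, Creld2 is near 206 CPM in both libraries without shRNA and near 97.2 CPM in both with it, and Ern1 and Ppp1r15a are highest in stimulated cells with shRNA.

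The other genes of the pathway were taken from 8 further lists with 139 genes, of which 134 were tested. By the additive test 5 rose with shRNA (3.73%, against 12.3% of all genes) and 12 fell (8.96%, near the 8.66% of all genes). With Pam3Cys4 24 rose (17.9%, against 11.9%) and 3 fell (2.24%, against 10.9%). Of 30 other ATF4 targets 10 fell with shRNA (33.3%, against 8.66% of all genes) and 1 rose, with a median log2 effect of -0.17. Those that fell include Cth, the cysteine-forming enzyme (17.7 and 54.5 CPM without shRNA, 9.14 and 24.7 CPM with it, edgeR adjusted p = 0.00923), the serine tRNA synthetase gene Sars (538 and 803 against 316 and 334 CPM, edgeR adjusted p = 0.0171), the serine synthesis gene Phgdh (edgeR adjusted p = 0.0246) and the amino acid transporter Slc7a5 (edgeR adjusted p = 0.0285). Stc2, a secreted stress-induced glycoprotein, had 1168 and 1570 counts without shRNA and 2 and 0 with it. Cebpb, a partner of ATF4 that is also an acute-phase regulator, was the one that rose (82.4 and 289 against 112 and 437 CPM, edgeR adjusted p = 0.0402). With Pam3Cys4 9 of these 30 rose (30.0%, against 11.9% of all genes) and 0 fell (10.9%), with a median of 0.33, Cebpb with log2 1.89 (edgeR adjusted p = 0.00358) and the stress factor Atf3 with 1.499 (edgeR adjusted p = 0.0114) among them.

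In the lists for the folding and transport machinery most genes did not pass. The shares of all genes to set beside the counts are 12.3% rising and 8.66% falling for shRNA, and 11.9% and 10.9% for Pam3Cys4. For shRNA, 0 of 13 oxidative folding genes, 1 of 13 N-glycosylation genes (Ostc, lower), 1 of 19 translocation genes (Sec62, higher), 1 of 18 further degradation genes (Os9, higher) and 2 of 20 ER to Golgi transport genes (Sec24c lower, Kdelr1 higher) passed the edgeR test. Of 11 sensor-processing genes 0 passed, and of 10 kinases and factors around eIF2 only Eif2ak2, the interferon-induced kinase PKR, rose, from 2.92 and 5.27 CPM to 14.7 and 31.2 CPM (log2 2.45, edgeR adjusted p = 0.00136). For Pam3Cys4, 4 of 20 transport genes rose, among them the cargo receptor Surf4 (log2 0.57, edgeR adjusted p = 0.0324), as did 4 of 10 kinases and factors around eIF2 while 1 fell. Of the other lists 1 or 2 genes rose in each, among them Ero1l, the oxidase that recharges disulfide isomerases (32.8 and 88.5 CPM without shRNA, 32.2 and 50.7 CPM with it, edgeR adjusted p = 0.0337), and 2 oxidative folding genes fell. Of 16 cytosolic and mitochondrial chaperones tested, 1 fell (6.25%) and 0 rose with shRNA, with a median log2 effect of -0.15, and 1 rose (6.25%) and 0 fell with Pam3Cys4, with a median of 0.26.

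**Figure D5:**
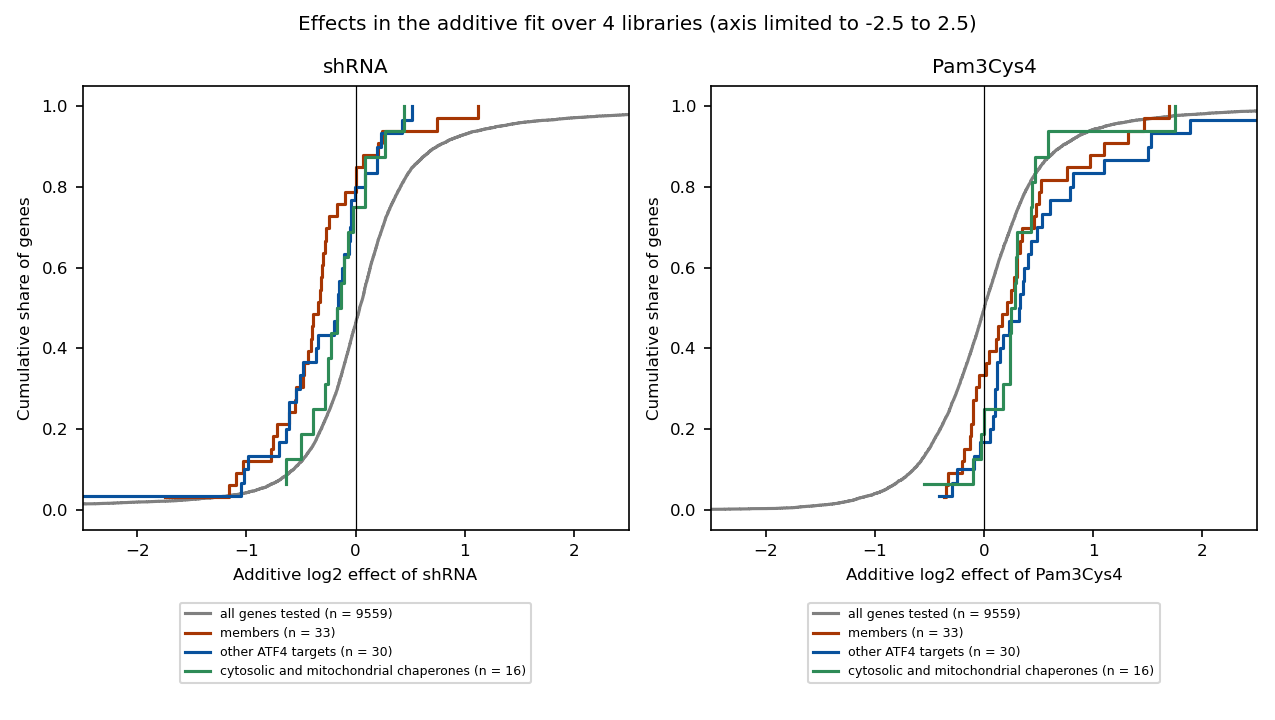
Cumulative share of genes by additive log2 effect of shRNA (left) and Pam3Cys4 (right), for all 9559 genes tested (grey), 33 members (brown), 30 other ATF4 targets (blue) and 16 cytosolic and mitochondrial chaperones (green). The members' curve lies left of that of all genes over most of its range for shRNA, with medians of -0.35 and 0.04, and right of it over most of its range for Pam3Cys4.

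Set against the promoter sequences printed above, members with an ERSE match were split in the shRNA test. Of 8 such members tested, Hspa5, Creld2 and Dnajc3 fell with shRNA, while Canx was among those that did not, and the median log2 effect of the 8 was -0.31. Of the 21 members with a promoter but without ERSE, 5 fell and 2 rose, with a median of -0.32. All 5 members that rose with Pam3Cys4 were among these 21, and Herpud1, with CARE and ERSE-II, was 1 of those 5. Of the 4 members without a promoter, 1 fell and 0 rose with shRNA. Over all genes tested 8.66% fell and 12.3% rose with shRNA, and 11.9% rose with Pam3Cys4. A part of these elements in the changes was not tested.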

How the data were processed

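The submitters' processing notes name CASAVA 1.8, TopHat, HTSeq and the build NCBIM37. TopHat and HTSeq versions, the gene annotation and any use of strand were not given in the sources used here. Each deposited file, made by the authors, lists whole read counts by gene ID for 1 library, plus 5 totals that name no gene and were kept out of library sizes and tests. The 34 members and all other lists, roles, motifs and thresholds were chosen with earlier results of these data known. Symbols came from gene ID tables on GRCm38, and no coordinate of a counted gene was taken.

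Scaling used TMM (edgeR 4.0.16, R 4.3.3), with factors of 0.924 to 1.10. A ratio of 2 libraries has an exact conditional binomial 95% interval and needed 5 CPM in the higher one. Ratios of ratios needed at least 10 counts in each library and have delta-method intervals. Intervals cover counting error only, and reads without molecular identifiers are not independent molecules. The additive edgeR quasi-likelihood test was run on genes with 5 CPM in 2 or more libraries, adjusted by Benjamini-Hochberg at 0.05, and had 3.76 prior degrees of freedom and a biological coefficient of variation of 0.137. Its standard errors are the log2 effect over the square root of F. DESeq2 1.42.0 was an alternative. Values of every library are printed for members called in a comparison and the 2 with the most reads of each role. From each other list the 2 genes with the highest level and the 2 with the largest log2 ratio could be named, and Cth, Sars, Phgdh, Cebpb, Atf3, Ostc and Kdelr1 were named after their values were seen. Promoters and lengths came from RefSeq and GENCODE tables on GRCm38.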

Additional observations from a re-analysis of the deposited data

Results flagged for a closer look

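With 1 library per group, 3 members had intervals on opposite sides of 1 in the 2 states of the other factor, and none of these differences was tested. For Chac1 the log2 shRNA ratio was 0.36 in unstimulated cells and -1.39 after Pam3Cys4, and with library totals alone 0.24 and -1.46. For Manf the log2 Pam3Cys4 ratio was 0.30 without shRNA and -0.44 with it, and with library totals alone 0.12 and -0.57. For Ssr1 it was 0.06 and -0.27, and with library totals alone both were below 0, at -0.11 and -0.40.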

How the results depend on the processing

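All 11 members called for shRNA and all 5 called for Pam3Cys4 in the additive test remained called, in the same direction, under the DESeq2 Wald test, library totals, DESeq2 size factors in edgeR, a 1 CPM filter and no filter. Chac1, uncalled for Pam3Cys4 in the main setting, passed under all of these except the 1 CPM filter. Hspa5, also uncalled there, passed under the DESeq2 Wald test. For shRNA, members falling went from 9 to 11 with DESeq2 and with no filter (Hyou1 and Manf added) and to 13 with library totals (Edem1 and Sel1l as well), while all genes falling went from 828 to 1063, 1874 and 1260. Members falling with Pam3Cys4 went from 0 to 2 with library totals (Eif2ak3 and Sdf2l1), and those rising from 5 to 9 with no filter, where all genes rising went from 1138 to 2013. With library totals the members' median log2 ratio moved to 0.0776 for Pam3Cys4 without shRNA, to -0.0059 with shRNA, which changed its sign, and to -0.31 for shRNA in unstimulated cells. At a 1.5-fold threshold 5 members were higher after Pam3Cys4 with shRNA (1301 of 9601 genes), 2 higher and 8 lower with shRNA in unstimulated cells (1277 and 985 of 9651), 2 higher and 10 lower with shRNA after Pam3Cys4 (1654 and 1167 of 9702), and 3 had a smaller stimulation fold with shRNA (563 of 9857). The cause of these moves was not tested. With library totals, the share of higher among called genes went from 52.1 to 37.6% for Pam3Cys4 without shRNA, from 64.1 to 51.5% with shRNA, from 58.6 to 45.1% for the additive shRNA effect and from 52.1 to 32.1% for the additive Pam3Cys4 effect, where all genes lower went from 1045 to 2023. No paired analysis was possible because each group is 1 library, and for the same reason no replicate could be left out.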

Other observations

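Outside the ER, the stress-inducible cytosolic HSP70 gene Hspa1b had 368 and 537 counts in unstimulated and stimulated cells without shRNA and 177 and 1125 with it. It was 1.51-fold higher after Pam3Cys4 without shRNA and 7.71-fold higher with it. Its stimulation fold was thus larger with shRNA (log2 ratio of ratios 2.36, interval 2.06 to 2.66), on the opposite side from Chac1. Hspa1b has a near-identical neighbour, Hspa1a, so its count is uncertain. Slc7a11, the cystine importer and an ATF4 target that is also driven by NRF2, had 377 and 6230 counts without shRNA and 771 and 3396 with it, a log2 ratio of ratios of -1.67 (-1.86 to -1.49). Ngly1, the enzyme that strips glycans from proteins leaving the ER, had 162 and 759 counts without shRNA and 198 and 214 with it. Its log2 ratio of ratios was -1.88 (-2.25 to -1.51). Slc7a11 and Ngly1 were the only 2 of 135 other pathway genes measured with a stimulation fold at least 2-fold smaller with shRNA. That share, 1.48%, is near the 1.64% of all genes.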
